A study of Mus musculus with 10 samples.

Results

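The 34 genes described here encode the enzymes that break glucose down to pyruvate and lactate, the oxygen-sensing proteins that control many of them, and well-known targets of that control. They were chosen by symbol: every row of the deposited count table whose gene name was on the list was a member. The table held 32 of the 34 symbols under 33 gene identifiers, out of 20579 genes in all, while Hk2 and Egln1 were not analysed here. Aldoa stood under 2 identifiers, and the minor identifier, with 134 counts over all libraries, was removed by the filter on low counts, so 32 members were tested among 16710 genes.

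Glycolysis splits glucose, once it has been phosphorylated by a hexokinase, into pyruvate with a small yield of ATP, and lactate dehydrogenase turns pyruvate into lactate when it is not sent to the mitochondria. Hypoxia-inducible factors are pairs of an oxygen-sensitive alpha subunit (Hif1a or Epas1) and a stable partner. In oxygen, prolyl hydroxylases of the Egln family mark the alpha subunit for destruction, and at low oxygen the factor binds DNA and raises glycolytic enzymes and stress proteins. The inner surface of the mature intestine is known as a tissue of low oxygen, and several of these genes also respond to growth signals and differentiation.

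The libraries came from intestines of mouse embryos at embryonic day 18.5 of a C57BL6/J / 129S4 background. The p57KO group, 5 libraries lacking the cyclin-dependent kinase inhibitor p57Kip2 (gene Cdkn1c), was set against 5 p57WT libraries. In both genotypes the cells had been sorted for green fluorescence driven by the Hopx promoter, a marker of reserve stem cells of the intestinal crypt, so both carried that reporter. Following the design text, which counts 5 intestines of each genotype, every library is treated as an embryo of its own. The sources used here do not give the sex of the embryos or how the p57KO allele and the reporter were made.

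Cdkn1c was between 0.153 and 2.06 CPM in the p57KO libraries and between 151 and 458 CPM in the p57WT libraries, where CPM are counts scaled to a common library size with TMM, edgeR's trimmed mean of M values. Total counts ran between 10684179 and 26809231 in p57KO and between 8037887 and 25527896 in p57WT, and 3 counts, taken as the floor, equal 0.112 to 0.373 CPM. Libraries p57KO 2, 3 and 4 and p57WT 2 exceeded 20000000 counts and the other 6 did not. Reads of ribosomal RNA repeats made up 0.0592% to 0.435% of counts in p57KO 1 to 4 and 9.47% in p57KO 5. They made up 0.0301% in p57WT 2 and 14.9% to 17% in the other p57WT libraries. At a class limit of 5%, only p57KO 5 was high in p57KO and only p57WT 2 was low in p57WT. A model term for this class therefore leans on these single libraries. A number of unknown meaning in the labels (607, 608 or 740) is nearly confounded with genotype: 607 covers p57KO 1, p57KO 2 and p57WT 1, 608 the other p57KO libraries, and 740 the other p57WT libraries. A model term for this number therefore compares the genotypes only within 607. The sorted material was not epithelium alone. Summed epithelial markers were 9105 to 17899 CPM in p57KO and 3105 to 7492 CPM in p57WT. Smooth muscle markers summed to 5117 to 36460 CPM in p57KO and 48610 to 108372 CPM in p57WT, and fibroblast markers to 132 to 1265 CPM in p57KO and 2501 to 8715 CPM in p57WT. Myeloid markers summed to 212 to 8981 CPM in p57KO and 28.8 to 153 CPM in p57WT, and erythroid markers to 110 to 1318 CPM in p57KO and 3.75 to 92.8 CPM in p57WT. Of the tested markers, 15 of 16 epithelial, 10 of 10 myeloid and 7 of 9 erythroid genes were called higher in p57KO, and 10 of 10 smooth muscle and 5 of 6 fibroblast genes were called lower. No marker was at 0 in every library. Libraries p57KO 1 and p57KO 2 had the least smooth muscle signal (5117 and 8501 CPM, against 23301 to 36460 CPM in the other p57KO libraries), and p57KO 2 the most myeloid signal. Hopx, whose promoter drives the sorted reporter, ran between 127 and 199 CPM in p57KO and between 60.4 and 78.1 CPM in p57WT (log2 fold change 1.08, edgeR adjusted p = 0.00191). The stem cell gene Lgr5 averaged 43.7 CPM in p57KO and 34.2 CPM in p57WT.

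In p57KO cells 8 members were higher and 5 were lower than in p57WT cells, and 19 did not pass the test. The members that rose were Ndrg1, Bhlhe40, Ankrd37, Bnip3 and Adm among the hypoxia targets, the glycolytic enzymes Aldoc and Tpi1, and lactate dehydrogenase A, Ldha. Those that fell were the enzymes Hk1, Pfkm and Eno2, lactate dehydrogenase B (Ldhb) and the oxygen sensor Egln3. The test was edgeR's quasi-likelihood test with Benjamini-Hochberg adjustment over all genes at 0.05. The 8 higher members are 25% of those tested, beside 19.3% of all tested genes called in that direction, and the 5 lower members are 15.6%, beside 17.2%, so neither share stands far from the background. The median log2 fold change of p57KO over p57WT was 0.36 over the members and 0.08 over all genes tested. In bulk libraries, fewer cells of a type and less RNA of a gene per cell cannot be told apart. The markers of smooth muscle, fibroblasts, epithelium and blood cells above moved with genotype as well, and their part in the values of the members was not tested.

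By role, the hypoxia targets had 5 of 11 members higher (45.5%, beside 19.3% of all genes tested) and 0 lower (beside 17.2%), with a median of 0.37. The 5 became 4 with a term for depth class (above or below 20000000 counts) and 2 with one for ribosomal RNA class (limit 5%). Under scaling to epithelial markers they became 0. The shares of all genes called higher in these 3 settings were 17.1%, 7.22% and 2.12%. The count of 0 lower depends on the grouping by role. Egln3, called lower and itself a known target of hypoxia-inducible factors, was counted with the oxygen-sensing genes. The 32 further hypoxia targets outside the members, described below, had 5 higher (15.6%) and 6 lower (18.8%). Of the 14 glycolytic enzymes 2 were higher (14.3%) and 3 lower (21.4%), with a median of 0.31. The 4 pyruvate and lactate enzymes had 1 in each direction (25% each), and the 3 oxygen-sensing genes had 1 lower (33.3%) and 0 higher. Without libraries p57KO 1 and p57KO 2, 11 members were higher and 4 lower (backgrounds 20.6% and 19.1%): Pgam1, Pgk1, Pfkl and Pdk3 joined the higher ones, and Adm and Pfkm no longer passed.

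**Figure D1:**
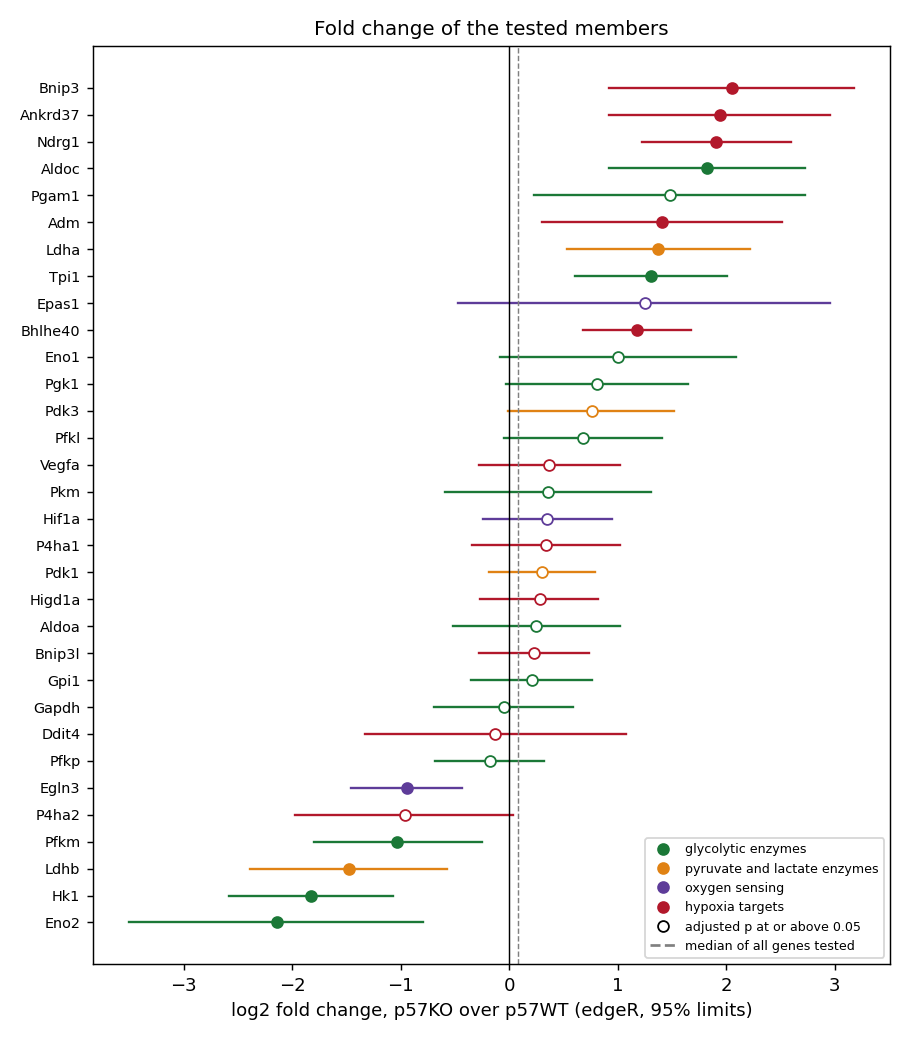
Log2 fold change of p57KO over p57WT for the 32 tested members (points; lines are 95% limits from edgeR), ordered by size and coloured by role, with filled points for an adjusted p below 0.05 and a dashed line at the median of all genes tested (0.08). The hypoxia targets Bnip3 (2.05), Ankrd37 (1.94) and Ndrg1 (1.91), in red, lead the plot. Other hypoxia targets lie lower, down to P4ha2 at -0.96, and Eno2 stands at the bottom at -2.14. When libraries are scaled to epithelial markers, 4 of the called positive values (Bhlhe40, Tpi1, Ldha and Adm) turn negative, along with the median of all genes.

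The DNA upstream of 4 members is shown because these genes moved in opposite directions and differ in the short sequence that hypoxia-inducible factors are known to contact. Each is the RefSeq promoter of build GRCm38.p6, 250 bases before to 50 bases after the transcription start, on the minus strand of its chromosome, written 5′ to 3′. Capitals mark ACGTG or GCGTG on the printed strand, or CACGT or CACGC, the same letters read on the other strand; neighbouring matches may overlap, and the letters CACGTG hold a match on each strand and are also the E-box read by basic helix-loop-helix proteins such as Bhlhe40. Bnip3 (chr7:138909457-138909756) had 5 matches, of which 2 form an E-box, Ankrd37 (chr8:45999801-46000100) had 4, Tpi1 (chr6:124814109-124814408) had 0 and Ldhb (chr6:142507908-142508207), a member that fell, had 1.
Bnip3: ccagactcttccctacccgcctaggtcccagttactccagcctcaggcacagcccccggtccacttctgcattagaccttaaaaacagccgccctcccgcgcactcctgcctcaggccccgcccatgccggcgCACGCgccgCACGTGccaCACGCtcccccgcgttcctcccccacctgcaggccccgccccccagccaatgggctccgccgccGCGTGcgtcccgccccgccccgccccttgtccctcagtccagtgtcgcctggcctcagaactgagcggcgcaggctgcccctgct
Ankrd37: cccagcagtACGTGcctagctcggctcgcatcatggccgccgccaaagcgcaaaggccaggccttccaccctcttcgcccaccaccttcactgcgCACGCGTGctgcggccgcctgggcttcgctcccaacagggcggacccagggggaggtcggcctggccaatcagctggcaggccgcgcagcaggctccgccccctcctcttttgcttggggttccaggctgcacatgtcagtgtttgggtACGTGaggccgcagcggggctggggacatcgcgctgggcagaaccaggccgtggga
Tpi1: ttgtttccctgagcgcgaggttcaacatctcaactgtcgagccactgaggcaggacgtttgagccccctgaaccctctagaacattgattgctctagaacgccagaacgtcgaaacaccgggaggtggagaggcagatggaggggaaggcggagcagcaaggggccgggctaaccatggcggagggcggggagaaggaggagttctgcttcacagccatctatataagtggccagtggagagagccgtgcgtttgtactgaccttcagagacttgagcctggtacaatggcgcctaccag
Ldhb: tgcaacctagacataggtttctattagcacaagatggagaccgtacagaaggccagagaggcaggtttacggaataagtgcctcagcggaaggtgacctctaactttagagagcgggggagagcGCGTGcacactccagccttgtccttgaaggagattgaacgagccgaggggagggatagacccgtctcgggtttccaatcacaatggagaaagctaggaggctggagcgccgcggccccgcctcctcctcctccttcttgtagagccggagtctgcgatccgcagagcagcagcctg
In Bnip3 the matches cluster between 117 and 99 bases before the start, with another 35 bases before it, and in Ankrd37 the last match lies 6 bases before the start. Of the members called higher, 5 of the 6 with a promoter in the table (83.3%) had at least 1 match, as did 4 of 5 called lower (80%) and 16 of 17 not called (94.1%), beside 65.9% of the 11227 tested genes with a promoter in the table and 46.7% of all genes with one. Promoters were found for 28 of the 32 symbols, and Ndrg1, Bhlhe40, Epas1 and Bnip3l are named only. A match is a run of letters in a window, not a bound site, and its absence in Tpi1 says only that these letters are not in this window.

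Among the hypoxia targets, and among all members, Ndrg1 had the smallest p. It encodes a stress protein induced by low oxygen, by differentiation and by growth arrest, and it stood at 382, 455, 573, 542 and 605 CPM in p57KO 1 to 5, against 199, 81.3, 155, 176 and 68.6 CPM in p57WT 1 to 5. Every p57KO library lay above every p57WT library. On the log2 scale p57KO over p57WT was 1.91 ± 0.32 (SE; 95% limits 1.22 to 2.60), a 3.76-fold higher level, with an adjusted p of 0.0011 in edgeR. Per kilobase of exon its mean level of 77.5 CPM in p57KO was the fourth highest among the members, behind Ldha, Aldoa and Tpi1, and it ranked 9 in p57WT at 20.6 CPM per kilobase. The Ndrg1 gene (ENSMUSG00000005125, chr15:66929318-66969640, minus strand, GRCm38) overlaps the noncoding gene Gm2895 on the other strand by 318 bases, and with the strand setting of the counting not given, reads of overlapping genes cannot be told apart; Gm2895 held 800 counts beside 59654 of Ndrg1.

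Bhlhe40, a transcriptional repressor that responds to hypoxia and to the circadian clock, had 90.6, 139, 156, 99.3 and 77.7 CPM in p57KO, against 48.5, 58.8, 46.5, 50 and 44.1 CPM in p57WT. The p57WT values lay close together, and every p57KO library lay above them. A log2 fold change of 1.18 ± 0.23 was found for it (SE, edgeR adjusted p = 0.00241), although scaling to epithelial markers turned it to -0.32; that scaling moved the median of all genes by -1.50, to -1.42. Ankrd37, an ankyrin-repeat protein known as a direct target of Hif1a, had 6.02, 14.3, 13.1, 14.1 and 7.4 CPM in p57KO and 2.05, 2.21, 2.06, 6.8 and 1.3 CPM in p57WT. Library p57WT 4 lay above p57KO 1, so the genotypes overlapped. The fold change, 1.94 ± 0.47 on the log2 scale, passed (edgeR adjusted p = 0.00761), and this value is uncertain because its gene meets Ufsp2 on the other strand over 57 bases and Ufsp2 held 17453 counts beside 1388 of Ankrd37.

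Bnip3 and Bnip3l encode paired proteins of the outer mitochondrial membrane that mark mitochondria for removal. Bnip3 had 16.3, 84, 82.8, 88.6 and 31.2 CPM in p57KO and 12.1, 31.8, 12.5, 11.4 and 4.98 CPM in p57WT. The deep library p57WT 2 lay above the shallow p57KO 1 and slightly above the shallow p57KO 5, so the genotypes overlapped. The 3 deep p57KO libraries were the highest of all. Bnip3 rose by a log2 fold change of 2.05 ± 0.53 (edgeR adjusted p = 0.00959), and of 1.29 with depth class as a term in the model (adjusted p = 0.00719). Bnip3l had 63.2, 98.7, 69.6, 73.6 and 58.1 CPM in p57KO and 56.9, 85.4, 67.5, 59.7 and 40.8 CPM in p57WT, ranges that overlap widely. Its log2 fold change of 0.23 had 95% limits of -0.28 to 0.74 and an edgeR adjusted p of 0.47. The ratio of Bnip3 to Bnip3l per kilobase was 0.44 to 2.05 in p57KO and 0.208 to 0.635 in p57WT. Of the counts of Bnip3l and its pseudogene copy together, the copy held 20.7%, so the Bnip3l values and this ratio are uncertain.

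Adm, the gene of the vasodilating peptide adrenomedullin, was scarce in both genotypes. It had 3.78, 13, 6.23, 2.84 and 4.44 CPM in p57KO, against 1.94, 2.13, 2.54, 0.785 and 4.03 CPM in p57WT, and p57WT 5 lay above p57KO 1 and p57KO 4. Its log2 fold change of 1.41 ± 0.51 barely passed (edgeR adjusted p = 0.0462), and it turned to -0.28 under scaling to epithelial markers. The call was lost without p57KO 2 (0.94), p57KO 3 (1.41), p57WT 1 (1.36), p57WT 2 (1.38), p57WT 3 (1.45) or p57WT 4 (1.19), with adjusted p-values of up to 0.143.

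The other hypoxia targets did not pass the edgeR test. Vegfa, the main growth factor of blood vessels, had 87.2 and 85.1 CPM in p57KO 1 and 2 and 28.7 to 45.8 CPM in the other p57KO libraries, against 35.5 to 53.8 CPM in p57WT. Of the p57KO libraries, p57KO 1 and 2 had the least smooth muscle signal and the most epithelial and myeloid signal. They are also the only ones of that genotype with the label number 607. The part of these traits in the Vegfa values was not tested. The log2 fold change of Vegfa, 0.37 (edgeR adjusted p = 0.344), became -0.14 without p57KO 1 and 2. Ddit4, an inhibitor of mTORC1 signalling, had 52.1, 10.5, 15.8, 15.9 and 73.4 CPM in p57KO and 67, 10.1, 31.8, 39.6 and 34.1 CPM in p57WT. Its lowest values were in the 4 deep libraries, at 10.1 to 15.9 CPM, and the genotypes overlapped (adjusted p = 0.878). Higd1a, a protein of the inner mitochondrial membrane, averaged 75.9 ± 24.1 CPM in p57KO and 62.6 ± 15.6 CPM in p57WT (SD, n = 5 each, edgeR adjusted p = 0.407). A pseudogene held 38.6% to 43.2% of the counts of Higd1a and its copy in p57KO and 26.9% to 35.2% in p57WT, so this value is uncertain.

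P4ha1 and P4ha2 are alternative catalytic subunits of the enzyme that hydroxylates proline in collagen. P4ha1 had 19.2, 42.9, 54.1, 40.8 and 31 CPM in p57KO and 20.6, 36.1, 32.2, 17.9 and 41.7 CPM in p57WT. P4ha2 had 1.81, 4.49, 7.84, 5.68 and 7.57 CPM in p57KO and 4.67, 12.9, 8.35, 7.06 and 20.5 CPM in p57WT. Both genotypes overlapped in each gene, and neither passed in edgeR: P4ha1 was at 0.34 (adjusted p = 0.411) and P4ha2 at -0.96 (adjusted p = 0.119) on the log2 scale. The ratio of P4ha1 to P4ha2 per kilobase was 6.21 to 16.1 in p57KO and 3.09 to 6.69 in p57WT, with overlap only between p57KO 5 and p57WT 1.

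**Figure D2:**
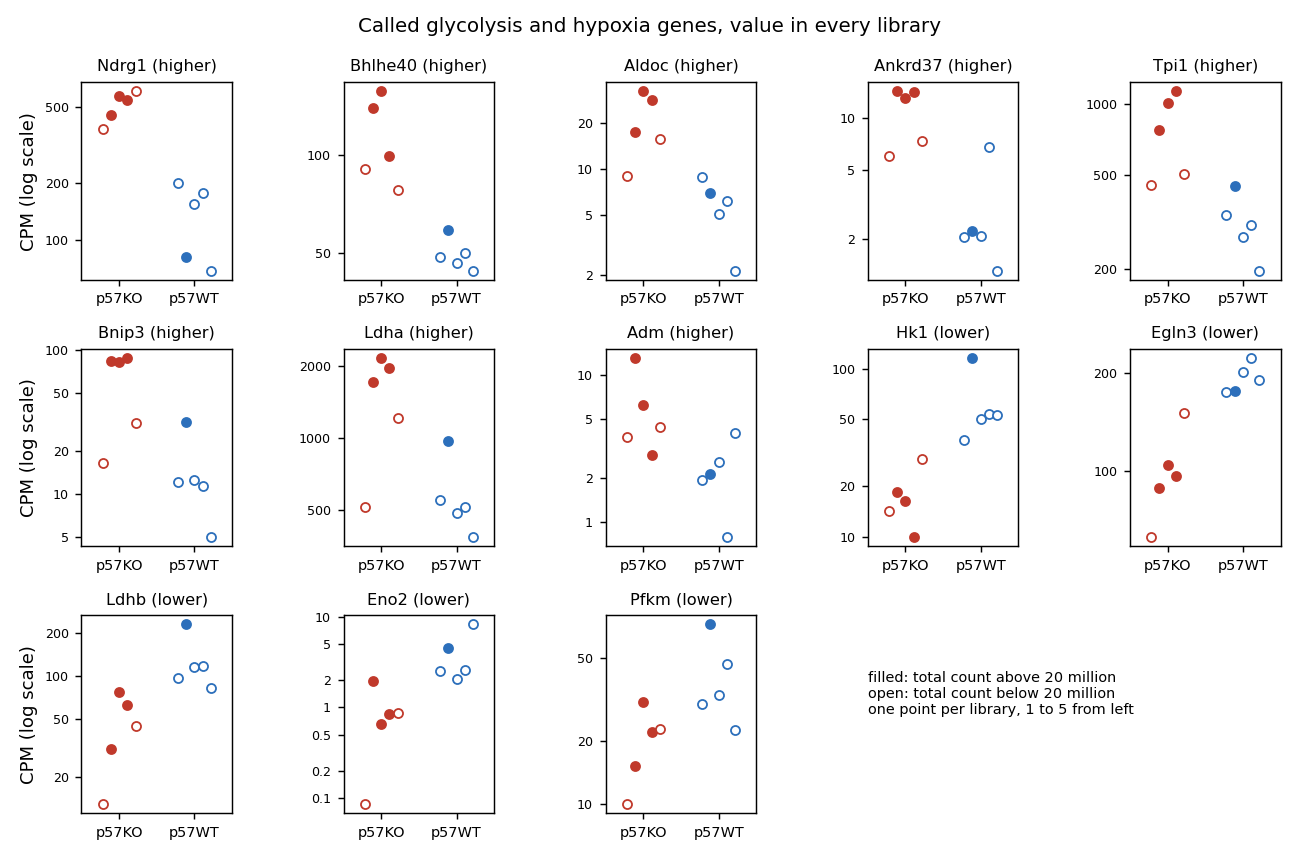
CPM in every library (log scale; p57KO red, p57WT blue; filled points are libraries above 20000000 counts) for the 8 members called higher and the 5 called lower. The genotypes do not overlap in Ndrg1, Bhlhe40, Aldoc, Tpi1, Hk1, Egln3, Ldhb and Eno2, and the filled p57WT point is the highest p57WT value in Bhlhe40, Bnip3, Ldha, Tpi1, Hk1, Ldhb and Pfkm; under scaling to epithelial markers the fold changes of Bhlhe40, Tpi1, Ldha and Adm turn negative.

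Every p57KO library lay above every p57WT library in 4 members, beside 11.5% of all genes tested, and below every p57WT library in another 4, beside 12.7%. The plot of values by library shows both sets.

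The called glycolytic enzymes were divided by direction, with Aldoc and Tpi1 higher and Hk1, Pfkm and Eno2 lower. Hk1, the hexokinase that commits glucose to the cell in most tissues, had 14.3, 18.6, 16.5, 9.97 and 29 CPM in p57KO, against 37.8, 116, 50.6, 54 and 53.3 CPM in p57WT. The groups did not overlap, and p57WT 2 was the highest by far. The log2 fold change of Hk1 was -1.83 ± 0.35 (SE; edgeR adjusted p = 0.0022), a 3.54-fold higher level in p57WT. The antisense gene Hk1os, which lies within Hk1, held 170 counts beside 6227. Gpi1, which converts glucose-6-phosphate to fructose-6-phosphate, averaged 178 ± 47.3 CPM in p57KO and 154 ± 37.3 CPM in p57WT (SD, n = 5 each), with a log2 fold change of 0.21 and limits of -0.35 to 0.76. Its pseudogene copy held 19.7% of the counts of both together, so the Gpi1 values are uncertain.

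Phosphofructokinase, the main control point of the pathway, is built from liver (Pfkl), muscle (Pfkm) and platelet (Pfkp) subunits. Pfkl had 74.6, 167, 245, 182 and 158 CPM in p57KO and 116, 163, 77, 108 and 53.7 CPM in p57WT. Pfkm had 9.98, 15.1, 30.8, 22.1 and 22.7 CPM in p57KO and 29.9, 72.4, 33.3, 46.8 and 22.6 CPM in p57WT. Pfkp had 86.4, 135, 163, 154 and 135 CPM in p57KO and 139, 210, 131, 139 and 143 CPM in p57WT. All 3 overlapped between genotypes. Only Pfkm passed the edgeR test, with a log2 fold change of -1.03 ± 0.36 (adjusted p = 0.0394), beside 0.68 for Pfkl (adjusted p = 0.131) and -0.18 for Pfkp (adjusted p = 0.562). The Pfkm call was lost without p57KO 1 (-0.85), p57KO 2 (-0.89), p57KO 4 (-1.05), p57KO 5 (-1.06), p57WT 2 (-0.71), p57WT 3 (-1.09) or p57WT 4 (-0.98). The Pfkm gene overlaps Senp1 on the other strand by 1156 bases, and Senp1 held 6700 counts beside 5109 of Pfkm. The Pfkm values, and the shares and ratios below that use them, are therefore uncertain.

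A ratio of paralogs within a library does not depend on how libraries are scaled. Among the 3 phosphofructokinase subunits per kilobase of exon, Pfkl made up 54.2%, 63.2%, 63.2%, 60.2% and 58.5% in p57KO, against 47.3%, 39.5%, 36.9%, 39.8% and 31.6% in p57WT. Pfkm made up 11.4% to 16.8% in p57KO and 24.5% to 35.1% in p57WT, and Pfkp 20.9% to 31.3% in p57KO and 25.4% to 41.8% in p57WT. The shares of Pfkl and Pfkm did not overlap between genotypes, while those of Pfkp did. Ratios were described and not tested.

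Aldolase splits fructose-1,6-bisphosphate. Its common form Aldoa had 414, 955, 1172, 1138 and 556 CPM in p57KO and 567, 1227, 594, 680 and 487 CPM in p57WT, and its highest value in either genotype came from a deep library. The log2 fold change of 0.25 had limits of -0.52 to 1.02 (edgeR adjusted p = 0.602). Aldoc, known from brain, had 9.03, 17.5, 32.6, 28.5 and 15.7 CPM in p57KO, against 8.88, 6.92, 5.08, 6.15 and 2.13 CPM in p57WT. The groups met but did not overlap, and a log2 fold change of 1.82 ± 0.42 resulted (edgeR adjusted p = 0.00564). Aldoc remained a minor form, at 0.0164 to 0.0251 of the Aldoa level per kilobase in p57KO and 0.00391 to 0.014 in p57WT, where p57WT 1 was the highest.

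Tpi1, which interconverts the 3-carbon products of aldolase, had 455, 774, 1010, 1129 and 502 CPM in p57KO, against 337, 448, 272, 308 and 196 CPM in p57WT. The lowest p57KO library exceeded the highest p57WT library by a small margin, and within each genotype the deep libraries were higher. Its fold change of 1.31 ± 0.32 on the log2 scale passed (edgeR adjusted p = 0.00792), and it turned to -0.13 under scaling to epithelial markers. Tpi1 (chr6:124810586-124814296) and Eno2 (chr6:124760053-124769673) are neighbours on the minus strand, 40912 bases apart, and were called in opposite directions.

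Gapdh and Pgk1 carry out the following steps. Gapdh had 18.1, 43.4, 47.3, 56.7 and 51.8 CPM in p57KO and 50.3, 45.8, 48.6, 53.2 and 27.3 CPM in p57WT, a log2 fold change of -0.05 with limits of -0.69 to 0.59. Its level of 10.5 CPM per kilobase in p57KO was far under the 281 of Tpi1, and 90 annotated pseudogenes match its transcripts at 95% identity or more over at least 150 bases. The 25 of them in the table held 33.5% of the counts of Gapdh and its copies, so the deposited Gapdh counts are uncertain. Pgk1 had 7.74, 26.8, 42.9, 53.4 and 36.5 CPM in p57KO and 19.8, 24.3, 19, 17.5 and 14.9 CPM in p57WT. Library p57KO 1 was the lowest of the 10, the other 4 p57KO libraries all exceeded the p57WT ones, and the edgeR adjusted p of 0.119 became 0.00582 without p57KO 1, at a log2 fold change of 1.06.

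Pgam1, which moves the phosphate of phosphoglycerate, had 11.8, 51.2, 76, 73.4 and 16.6 CPM in p57KO and 13, 40.6, 10.5, 11.1 and 6.28 CPM in p57WT. Its 4 highest values were those of the 4 deep libraries, whatever the genotype. The log2 fold change of 1.48 missed the threshold (edgeR adjusted p = 0.0611). It passed without p57KO 1 (1.73), p57KO 5 (1.71) or p57WT 2 (2.17), and was 0.56 with depth class as a term (adjusted p = 0.101). A pseudogene held 37.8% of the counts of Pgam1 and its copy together, which makes these values uncertain.

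Enolase makes phosphoenolpyruvate. Eno1, the form of most tissues, had 76.1, 393, 252, 225 and 85.9 CPM in p57KO and 82, 232, 63.7, 89.7 and 47.7 CPM in p57WT, again with the deep libraries highest. Its level in p57KO over p57WT, a 2-fold ratio with limits of -0.08 to 2.09 on the log2 scale, missed the threshold (edgeR adjusted p = 0.132). The log2 fold change was 1.55 without p57WT 2 (adjusted p = 0.0238) and 0.24 with depth class as a term. Eno2, the neuronal form, had 0.086, 1.95, 0.665, 0.844 and 0.87 CPM in p57KO, against 2.5, 4.51, 2.06, 2.62 and 8.3 CPM in p57WT. These are 1 to 46 counts per p57KO library and 17 to 114 per p57WT library, and the groups did not overlap. Eno2 was lower by a log2 fold change of -2.14 ± 0.63 (edgeR adjusted p = 0.0181), and the call was lost without p57WT 5 (-1.71, adjusted p = 0.059). Of 8 tested markers of enteric neurons and glia 4 were called lower in p57KO, with summed levels of 20.8 to 40.7 CPM in p57KO and 25.9 to 95.3 CPM in p57WT, and their part in the Eno2 result was not tested. Pkm, the last enzyme of glycolysis, averaged 370 ± 226 CPM in p57KO and 288 ± 153 CPM in p57WT (SD, n = 5 each, edgeR adjusted p = 0.544). Its pseudogene copy held 12.2% of the counts of both together, so the Pkm values are uncertain.

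The lactate dehydrogenases were called in opposite directions. Ldha, the subunit that favours lactate production, had 512, 1705, 2160, 1959 and 1211 CPM in p57KO, against 550, 974, 487, 515 and 384 CPM in p57WT. All p57KO libraries but p57KO 1 exceeded every p57WT library. Ldha had a log2 fold change of 1.37 ± 0.39 (edgeR adjusted p = 0.016), and it turned to -0.06 under scaling to epithelial markers. Ldhb, the subunit of oxidative tissues, had 13, 31.4, 77.5, 63 and 44.7 CPM in p57KO, against 96.5, 228, 116, 117 and 82.5 CPM in p57WT. The groups did not overlap, and the value on the log2 scale was -1.48 ± 0.42 (edgeR adjusted p = 0.0163).

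The ratio of Ldha to Ldhb per kilobase of exon was 18.7, 25.8, 13.2, 14.7 and 12.8 in p57KO, against 2.7, 2.02, 1.98, 2.09 and 2.21 in p57WT. Among p57WT libraries the highest ratio was that of p57WT 1, the only one with the label number 607, and p57KO 1, the lowest p57KO library for each gene, lay within the range of its genotype. The mean difference was 2.91 on the log2 scale, with an SD of 0.42 over p57KO and 0.18 over p57WT libraries. Pseudogenes held 3.58% of the counts of Ldha and its copies and 8.19% of those of Ldhb. Of 10 ratios between members, which were chosen with earlier results known, 5 did not overlap between genotypes and 5 did. Each of the 5 without overlap holds a member called in these same data, so it partly restates that call. The share of other gene pairs without overlap was not computed. The ratio of Pfkl to Pfkm was 3.49 to 5.54 in p57KO, against 1.93 in p57WT 1 and 1.13 to 1.19 in the other p57WT libraries. Eno1 over Eno2 was 86.3 to 332 in p57KO 2 to 5 and 5.02 to 45.1 in p57WT. In p57KO 1 it was 774, which rests on 1 Eno2 count and has an exact 95% counting interval of 139 to 30610. Ratios that overlapped included Pfkp to Pfkm (1.32 to 2.23 in p57KO, 0.723 to 1.57 in p57WT), Pdk1 to Pdk3 (0.207 to 0.727 in p57KO, 0.277 to 0.69 in p57WT) and Hif1a to Epas1 (3.19 to 59.7 in p57KO, 8.77 to 108 in p57WT).

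**Figure D3:**
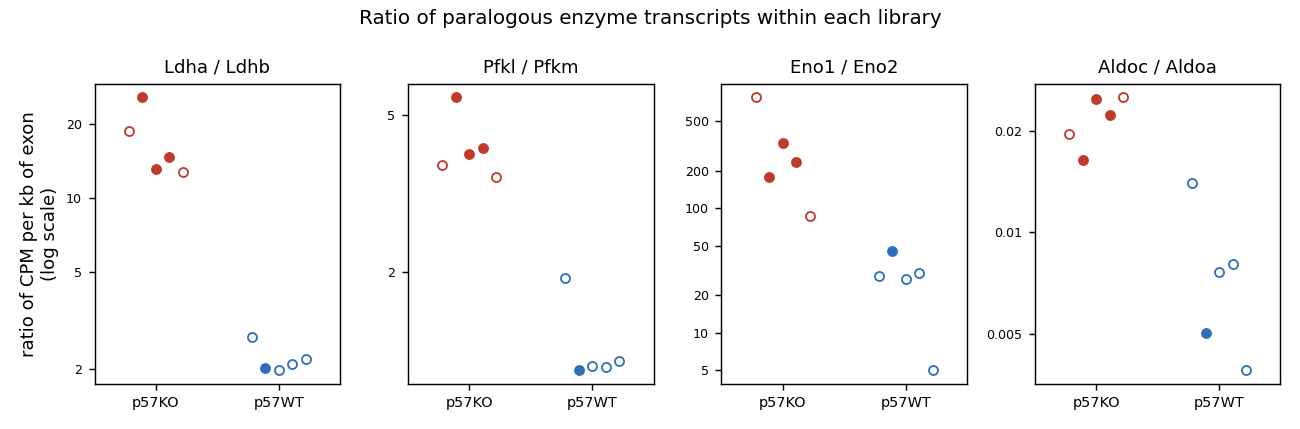
Ratio of CPM per kilobase of exon between paralogs in each library (log scale; p57KO red, p57WT blue; filled points are libraries above 20000000 counts). The 4 ratios shown, of the 10 computed, are higher in every p57KO library than in any p57WT library. The highest Eno1 to Eno2 point, p57KO 1, rests on 1 Eno2 count, and for Ldha over Ldhb the p57KO points lie between 12.8 and 25.8 and the p57WT points between 1.98 and 2.7.

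Pyruvate dehydrogenase kinases Pdk1 and Pdk3 inhibit pyruvate dehydrogenase, and so hold back the use of pyruvate in the mitochondria. Pdk1 had 63.5, 63, 79.6, 84 and 80.6 CPM in p57KO and 76.4, 64.2, 51.7, 71.3 and 37.3 CPM in p57WT. Pdk3 had 28.7, 74.6, 126, 116 and 75.6 CPM in p57KO and 36.4, 76.3, 54.1, 39 and 43.4 CPM in p57WT. Both overlapped, and neither log2 fold change, 0.30 for Pdk1 and 0.76 for Pdk3, passed in edgeR (adjusted p = 0.313 for Pdk1 and 0.108 for Pdk3). Pdk3 passed without p57KO 1 (0.98, adjusted p = 0.0133), as did Pfkl (0.87, adjusted p = 0.0345).

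Of the oxygen-sensing genes only Egln3 passed, and it was lower. Hif1a had 132, 174, 94.8, 85.1 and 73.4 CPM in p57KO and 59, 112, 106, 75 and 86 CPM in p57WT, and its log2 fold change of 0.35 had limits of -0.24 to 0.95 (edgeR adjusted p = 0.328), though it was 1.38 with the label number as a term. Epas1, the alpha subunit best known from blood vessels, had 39.1, 9.95, 1.51, 2.45 and 6.96 CPM in p57KO and 6.37, 0.988, 7.5, 3.01 and 7.47 CPM in p57WT. A single library, p57KO 1, carried its difference: the log2 fold change of 1.25 (adjusted p = 0.23) became 0.06 without it. Endothelial markers summed to 6.11 CPM in p57KO 1, the lowest of that genotype, against up to 28.4 CPM in p57KO 5. Only 3 of the 8 endothelial markers passed the filter on low counts, and their part in the Epas1 values was not tested.

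Egln3, the prolyl hydroxylase that is itself a well-known target of hypoxia-inducible factors, fell where Ndrg1, Ankrd37 and Bnip3 rose. It had 62.4, 88.4, 104, 96.1 and 150 CPM in p57KO, against 174, 176, 201, 222 and 190 CPM in p57WT. No p57KO library reached the p57WT range. On the log2 scale the change was -0.94 ± 0.24 (edgeR adjusted p = 0.00924), and with p57KO 1 and p57KO 2 left out it was -0.68 (adjusted p = 0.0262). Library p57KO 1 was the lowest in Egln3, in smooth muscle markers (5117 CPM) and in fibroblast markers (132 CPM). Library p57KO 5 was the highest of its genotype in Egln3 and in fibroblast markers (1265 CPM). It had 23301 CPM of smooth muscle markers, under the 36460 CPM of p57KO 3. The part of these cell types in the Egln3 values was not tested.

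Depth moved with many members. In 9 members the deep p57WT 2 lay well above the shallow p57WT libraries, which had more ribosomal RNA (14.9% to 17%, against 0.0301% in p57WT 2) and less smooth muscle signal (48610 to 64706 CPM, against 108372 CPM). The part of each was not tested. Examples are Pgam1 at 40.6 against 6.28 to 13 CPM, Eno1 at 232 against 47.7 to 89.7 CPM, Bnip3 at 31.8 against 4.98 to 12.5 CPM, Pkm at 552 against 178 to 286 CPM and Aldoa at 1227 against 487 to 680 CPM. As 3 of the 4 deep libraries were p57KO, depth and genotype overlap. With depth class as a term, 8 members were called higher and 5 lower (backgrounds 17.1% and 17.1%): 12 of the 13 calls held, Adm was lost and Epas1 was gained at 2.02 (edgeR adjusted p = 0.0319). Among the 6 shallow libraries alone, 0 members passed in edgeR (backgrounds 3.11% higher and 2.85% lower), with 10 at an unadjusted p below 0.05, and Ndrg1 was at 1.67 (adjusted p = 0.0515). Among the 4 deep libraries, with p57WT 2 as the lone p57WT library assumed to vary like p57KO, 0 of all genes passed (0% and 0%), with 9 members at an unadjusted p below 0.05, and Ndrg1 was at 2.75. A term for ribosomal RNA class kept 5 calls, Ndrg1 (2.30), Bhlhe40 (0.88), Hk1 (-1.87), Ldhb (-1.76) and Pfkm (-1.22), beside backgrounds of 7.22% higher and 10.5% lower. In it, p57KO 5 was the only p57KO library of the high class and p57WT 2 the only p57WT library of the low class. A term for the label number kept 0 of 13 (backgrounds 1.1% and 4.94%), with the same sign as before in all 13. With this term the genotypes are compared only between p57KO 1 and p57KO 2 on one side and p57WT 1 on the other. In that comparison Hif1a was at 1.38 and Vegfa at 1.28, and neither is among the 13 calls. Scaled to epithelial markers, 0 members were called higher and 17 lower, beside 2.12% and 66.4% of all genes.

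**Figure D4:**
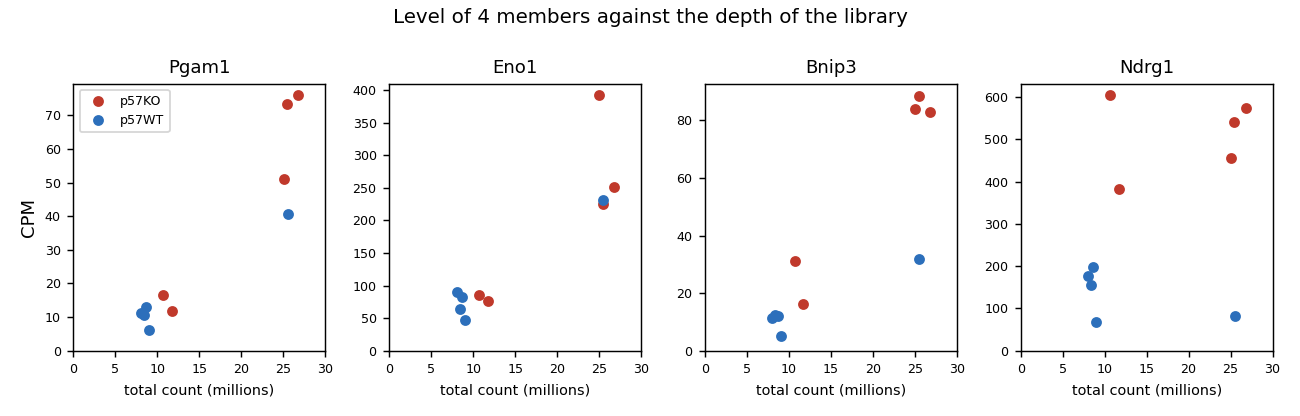
CPM against total count for Pgam1, Eno1, Bnip3 and Ndrg1, one point per library (p57KO red, p57WT blue). In Pgam1 and Eno1 the libraries above 20000000 counts lie high in either genotype, while in Ndrg1 the deep p57WT library, at 81.3 CPM, lies with the shallow p57WT ones.

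**Figure D5:**
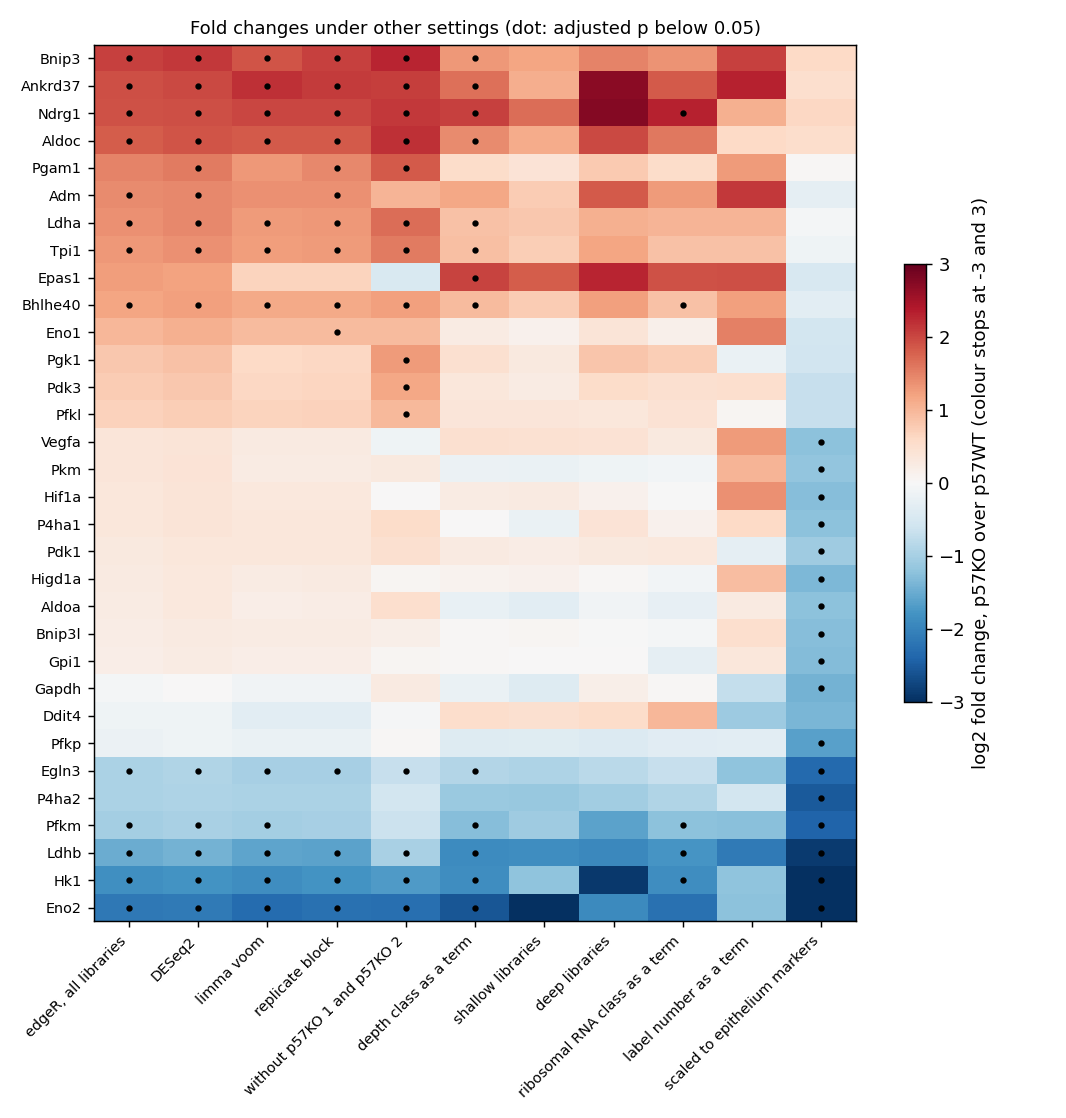
Log2 fold change of p57KO over p57WT for the 32 tested members (rows, ordered as by edgeR) under edgeR with all libraries and 10 other settings (columns), with red above 0, blue below 0 and a dot for an adjusted p below 0.05. The top and bottom rows keep their colour across most columns, while scaling to epithelial markers takes the median of all genes to -1.42, turns Bhlhe40, Tpi1, Ldha and Adm negative, and leaves 0 members called higher.

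Genes around the pathway, from 5 lists outside the members, were read from the same fit. Of 86 tested, 23 were higher (26.7%) and 9 lower (10.5%), with a median of 0.35, beside 19.3% higher, 17.2% lower and a median of 0.08 over all genes tested. The glucose and lactate carriers and regulators of glycolysis had 10 of 19 higher (52.6%) and 2 lower (10.5%), with a median of 0.93. The 10 became 5 with depth class as a term, 4 with ribosomal RNA class and 0 with the label number. Under scaling to epithelial markers 0 were higher and 6 lower. The shares of all genes called higher in these settings, in the same order, were 17.1%, 7.22%, 1.1% and 2.12%. Under that scaling 66.4% of all genes were called lower. Slc2a1, the main glucose transporter of growing cells, had 105 ± 55.7 CPM in p57KO and 33.4 ± 8.03 CPM in p57WT (SD, n = 5 each), a log2 fold change of 1.65 (edgeR adjusted p = 0.00247). The hexokinase-related gene Hkdc1 averaged 47.7 ± 6.22 CPM in p57KO and 15.5 ± 5.39 CPM in p57WT (1.63 on the log2 scale, adjusted p = 0.00106). Adpgk, which phosphorylates glucose with ADP, fell with Hk1, to 11.5 ± 6.67 CPM in p57KO against 35.9 ± 5.11 CPM in p57WT (-1.65, adjusted p = 0.00371). Glucose-phosphorylating enzymes thus included called genes in each direction.

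The enzymes of fructose breakdown and glucose synthesis had 7 of 11 higher (63.6%, beside 19.3% of all genes tested) and 0 lower, with a median of 1.82. The 7 became 5 with depth class or ribosomal RNA class as a term and 0 with the label number. Under scaling to epithelial markers 1 was higher and 2 lower. The shares of all genes called higher in these settings, in the same order, were 17.1%, 7.22%, 1.1% and 2.12%. Under that scaling 66.4% of all genes were called lower. Fructose bisphosphatase Fbp2 averaged 628 ± 186 CPM in p57KO and 163 ± 37.1 CPM in p57WT (SD, n = 5 each; log2 fold change 1.94, edgeR adjusted p = 0.000506), and the glucose-6-phosphate carrier Slc37a4 114 ± 59.3 CPM in p57KO and 21.4 ± 6.35 CPM in p57WT (2.42, adjusted p = 0.000711). Ketohexokinase, Khk, which starts fructose breakdown, averaged 35.2 ± 13.4 CPM in p57KO and 13.1 ± 1.57 CPM in p57WT (1.42, adjusted p = 0.0021), though -0.15 under scaling to epithelial markers. Epithelial markers rose alongside these genes, with a median log2 fold change of 1.33 over the 16 tested, and their part was not tested.

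Of the 11 genes for pyruvate dehydrogenase and pyruvate import only the phosphatase Pdp2 passed, with 25.6 ± 9.84 CPM in p57KO libraries and 12.9 ± 3.85 CPM in p57WT libraries (0.99, edgeR adjusted p = 0.0287), and it was -0.45 under scaling to epithelial markers. Of the 13 partners in oxygen sensing only Arnt2, a partner subunit best known from neurons, passed, with 2.22 ± 1.37 CPM in p57KO libraries and 7.84 ± 1.84 CPM in p57WT (-1.82, adjusted p = 0.011). The 32 further hypoxia targets had 5 higher (15.6%) and 6 lower (18.8%), with a median of 0.07, close to the 19.3%, 17.2% and 0.08 of all genes tested. Narf averaged 75.4 ± 22.8 CPM in p57KO and 22.4 ± 8.43 CPM in p57WT (1.75, adjusted p = 0.00106), and P4hb, the subunit shared by the collagen prolyl hydroxylases, 800 ± 244 CPM in p57KO and 348 ± 57.4 CPM in p57WT (1.20, adjusted p = 0.00524; -0.31 under scaling to epithelial markers). Loxl2, a collagen-crosslinking enzyme, averaged 10.1 ± 6.84 CPM in p57KO libraries and 63.8 ± 41.6 CPM in p57WT (-2.67, adjusted p = 0.00257), and the nuclear receptor Rora averaged 6.7 ± 2.55 CPM in p57KO libraries and 19.2 ± 4.19 CPM in p57WT (-1.53, adjusted p = 0.00383). Fibroblast markers, which include collagens, were lower in p57KO as given above, and their part in the Loxl2 result was not tested. The heme oxygenase Hmox1, named after its values were seen, had 51, 310, 9.91, 6.1 and 2.96 CPM in p57KO and 1.37, 0.593, 0.121, 0.131 and 8.65 CPM in p57WT. Its log2 fold change of 5.16 (adjusted p = 0.0131) became 1.63 (adjusted p = 0.205) without p57KO 1 and p57KO 2, and p57KO 2 also had the highest myeloid marker sum, 8981 CPM.

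In the authors' deposited table, 9 members were higher and 5 lower at an adjusted p below 0.05, beside 20.5% and 17% of all its genes. The member called there and not by edgeR was Pgam1, at a log2 fold change of 1.57 in the authors' deposited table.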

How the data were processed

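RNA was sequenced from 10 libraries of sorted Hopx-GFP cells. The deposited table held raw counts of reads per gene, per the file headers, and a signal that the authors made from them with a size factor for each library. Log2 fold changes with standard errors, a Wald score and p-values, raw and adjusted, were deposited for the authors' own comparison. Tools named by the submitters' processing notes are DESeq2 1.22.2, HTSeq 1.0, Cufflinks 2.2.1, STAR 2.6.1d, Trim Galore and FastQC, with build mm10 (GRCm38). The sources used here do not give the annotation release, the strand setting or the role of each tool. Reads of near-identical copies or overlapping genes could be split or lost.

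The members and lists were chosen with earlier results of these data known. Counts were tested with edgeR 4.0.16 in R 4.3.3 (quasi-likelihood test, TMM scaling, expression filter, genotype as the only term), over all 16710 genes that passed the filter. Calls were made where the p adjusted by Benjamini-Hochberg was below 0.05. Every adjusted p of a gene comes from edgeR unless the authors' table or another tool is named. The 95% limits of fold changes come from the edgeR fit, while floors and the interval of the Eno1 to Eno2 ratio cover counting error only. The rule for named genes gave values in every library for Ndrg1, the 12 members with the smallest p and the paralog pairs, and up to 4 called genes of each pathway list. Some genes that this rule picks are not reported here. Of the identifiers, 20558 matched GENCODE M21, which gave coordinates and exon lengths, and pseudogene copies were found with blastn 2.17.0. The 3 repeat features Mir6236, Gm23935 and Gm15564 gave the ribosomal RNA share. No pair of libraries of a genotype agreed within sampling noise (chi-square per degree of freedom 46.8 to 310 in p57KO, 9.5 to 314 in p57WT). Nothing but the design text says that libraries are separate embryos, so p-values measure the spread between these libraries. Alternatives were DESeq2 1.42.0, its size factors in edgeR, no filter, limma 3.58.1 voom, a replicate block, each library left out, libraries p57KO 1 and 2 left out, terms for label number, ribosomal RNA class (limit 5%) and depth class, depth classes alone, and scaling to epithelial markers. The depth alternatives were chosen after seeing the data. The script was tested on simulated data.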

Additional observations from a re-analysis of the deposited data

Results flagged for a closer look

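In 12 of the 66 groups of 5 libraries looked at (32 tested members and the minor Aldoa identifier, in each genotype), the highest or lowest library lay far from the others by Dixon's ratio at its 95% critical value of 0.71, which chance alone reaches in about 1 of 20 groups. Of these, 9 were the deep library p57WT 2, the only p57WT library above 20000000 counts, the only one with little ribosomal RNA (0.0301%, against 14.9% to 17% in the others) and the one with the most smooth muscle signal (108372 CPM). The part of each in these values was not tested. It had 116 CPM of Hk1 (37.8 to 54 CPM in the other p57WT libraries), 31.8 CPM of Bnip3 (4.98 to 12.5), 974 CPM of Ldha (384 to 550), 228 CPM of Ldhb (82.5 to 117) and 40.6 CPM of Pgam1 (6.28 to 13). It also had 232 CPM of Eno1 (47.7 to 89.7), 552 CPM of Pkm (178 to 286), 1227 CPM of Aldoa (487 to 680) and 210 CPM of Pfkp (131 to 143). Its ratio of Ldha to Ldhb, 2.02, lay within the p57WT range of 1.98 to 2.7, as both genes were high.

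The other 3 stood apart singly. Epas1 was at 39.1 CPM in p57KO 1, against 1.51 to 9.95 CPM in the other p57KO libraries. Ankrd37 was at 6.8 CPM in p57WT 4 (1.3 to 2.21 CPM in the other p57WT libraries), and Gapdh at 27.3 CPM in p57WT 5 (45.8 to 53.2 CPM).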

How the results depend on the processing

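DESeq2, its size factors in edgeR, no filter, limma voom and the replicate block each changed at most 1 of the 13 member calls (limma voom lost Adm; no filter and the block lost Pfkm) and reversed none. Over libraries left out, all calls ran between 4763 and 7141 genes, members higher between 7 and 12, members lower between 4 and 5, their median between 0.26 and 0.51, and called pathway genes between 24 and 40. Ddit4 ran between -0.62 and 0.22 and Gapdh between -0.19 and 0.15 there. Of the 13 called members, 10 passed in every such fit, and Adm, Pfkm and Eno2 did not. The replicate numbers are shared labels only: the 5 same-numbered pairs had correlations of deviations between -0.134 and 0.204, and not every library matched its own number best. With the replicate block 10 members were higher (Pgam1 1.43 and Eno1 0.96 joined), 4 lower and 5804 genes called.

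The calls over all genes, 6107, became 1009 with the label number, 2959 with ribosomal RNA class, 11454 under scaling to epithelial markers, 1057 in shallow libraries and 0 in deep libraries (4946 at an unadjusted p below 0.05). Members higher and lower became 0 and 0 with the label number, 2 and 3 with ribosomal RNA class, 0 and 17 under epithelial scaling, 0 and 0 in shallow libraries, and 0 and 0 in deep libraries. Called pathway genes, 32, became 7, 18, 51, 7 and 0 under these 5 settings, taken in the same sequence. The higher share of all calls, 52.8%, was 18.1%, 40.8% and 3.09% under the first 3. The depth classes hold fewer libraries, and in the shallow ones fold changes were also smaller, as in Bnip3 (1.18), Ankrd37 (1.08) and Hk1 (-1.21). For all 5 settings the cause was not tested.

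Signs turned as follows. Under epithelial scaling, where the median of all genes was -1.42, the median of the members was -1.20, with Bhlhe40 -0.32, Tpi1 -0.13, Ldha -0.06, Adm -0.28, Eno1 -0.54, Pdk3 -0.70, Pgk1 -0.57, Pfkl -0.68, Epas1 -0.49, Pdk1 -1.07, Hif1a -1.27, Vegfa -1.24, Higd1a -1.34, P4ha1 -1.23, Bnip3l -1.27, Pkm -1.18, Gpi1 -1.31 and Aldoa -1.23. With ribosomal RNA class they were Hif1a -0.02, Higd1a -0.08, Bnip3l -0.06, Pkm -0.08, Gpi1 -0.26, Aldoa -0.24, Ddit4 0.99 and Gapdh 0.03, and with the label number Pgk1 -0.19 and Pdk1 -0.27. In deep libraries they were Bnip3l -0.02, Pkm -0.13, Gpi1 -0.00, Aldoa -0.11, Ddit4 0.54 and Gapdh 0.17, in shallow ones P4ha1 -0.21, Pkm -0.19, Aldoa -0.31 and Ddit4 0.49, and with depth class Pkm -0.17, Aldoa -0.23 and Ddit4 0.52. Without p57KO 1 and 2 they were Epas1 -0.46, Vegfa -0.14, Pfkp 0.04 and Gapdh 0.26, and with no filter Gapdh 0.01. None of these turned members but Bhlhe40, Tpi1, Ldha and Adm had passed the test. At 1 to 46 counts per p57KO library, depth limits Eno2 most among the called members.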
